A study of Mus musculus with 117 samples.

Results

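The astrocyte libraries of 14 d and 28 d after spinal cord injury (SCI) were compared, 4 female mice at each time, which are 8 of the 117 libraries of the series. Members were taken by their titles, so that the 4 males of 14 d, labelled as such, did not enter. All 8 mice were young adults of the genotype Aldh1l1-CreERT2-RiboTag, and both groups carried the same alleles and received the same complete crush of the thoracic cord. By their labels the groups differed in the day of collection alone, 14 or 28 d after SCI. CreERT2 is a recombinase that works only after tamoxifen, here under the control of the astrocyte gene Aldh1l1, and RiboTag is an allele of the ribosomal protein gene Rpl22 that gains a hemagglutinin tag where Cre has acted. An antibody to the tag pulled down ribosomes with their mRNA from a block of cord that reached 1 mm to either side of the centre of the lesion. Each astrocyte library therefore stood for all tagged cells of that block, at the lesion border and beyond it, in 1 mouse, and cells that never activated the Cre left no tag. RNA left in solution after the pulldown gave a flow-through library from each of the same 8 mice, matched by the numbers in the titles. The uninjured, 2, 5, 42 and 70 d females of the same line (4 mice each, 5 at 2 d) served for the course of single genes.

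Astrocytes are the glia that clear glutamate and potassium from around synapses, supply lipids and metabolites to neurons and line vessels and the surface of the cord. After injury, those at the lesion divide, raise intermediate filaments such as Gfap and assemble into a border around a core that fills with blood-derived and stromal cells. Phagocytes in the core take up myelin and cell debris and break it down in lysosomes, the acidic organelles whose hydrolases digest proteins, sugars and lipids.

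Expression is given as CPM, counts scaled to a common library total after TMM, edgeR's correction for library composition. A log2 fold change is 28 d minus 14 d unless said otherwise, with its standard error. For edgeR fits that error was derived from the test, as the absolute log2 fold change over the square root of the F value. Called genes are those with an adjusted p under 0.01 in edgeR's quasi-likelihood F test with Benjamini-Hochberg adjustment over all genes tested, and "edgeR adjusted p" names that value throughout. Total counts were 97436392 to 115404209 at 14 d and 99801415 to 108402547 at 28 d, so that depth differed little between the groups. On the first principal component of the 8 libraries, with 56.9% of the variance, the 14 d replicate 2 library lay farthest to one side at -33.4 and the 28 d replicate 3 library farthest to the other at 27.4, and the 14 d replicate 1 (-9.54) and 28 d replicate 2 (12.1) libraries lay nearest to each other. No pair of replicates agreed within sampling noise.

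Astrocyte markers were abundant in the pulldown at both times. Gfap, the intermediate filament of reactive astrocytes, stood at 30957, 25364, 31008 and 29539 CPM at 14 d and 32182, 32468, 32330.2 and 35832 CPM at 28 d, a log2 fold change of 0.18 ± 0.12 (edgeR adjusted p = 0.32). Aldh1l1, the folate enzyme whose promoter drives the Cre, stood at 225, 183, 232 and 232 CPM and 284, 237, 272 and 276 CPM, a log2 fold change of 0.29 ± 0.10 (edgeR adjusted p = 0.052). Neither passed the threshold. Every 28 d library lay above every 14 d library for both, which does not stand in for the test. The summed level of 14 astrocyte markers was 48106 to 57896 CPM at 14 d and 60368 to 67202 CPM at 28 d in the astrocyte libraries, against 4459 to 6201 and 4966 to 5403 CPM in the flow-through libraries, all on a common scale. Neuron markers (11 genes) summed to 124 to 148 and 107 to 229 CPM and endothelial markers (10 genes) to 36.6 to 46.3 and 27.9 to 47.8 CPM in the astrocyte libraries, far below their flow-through levels of 1791 to 2653 CPM and 241 to 279.9 CPM at 14 d. Oligodendrocyte markers (10 genes) summed to 1963 to 2610.0 and 1279 to 3338 CPM in the pulldown. In the marker lists of T cells, B and plasma cells, neutrophils, erythrocytes, oligodendrocytes and their progenitors, neurons, Schwann cells, pericytes and fibroblasts no gene was called between the times, and 1 was called higher in each of the astrocyte, endothelial and ependymal lists. Markers of phagocytes were not low, and are given with the phagocyte genes.

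Of 18205 genes tested, 532 were higher at 28 d (2.92%) and 816 lower (4.48%), 7.40% in all, and 5062 had an unadjusted p under 0.05. The fall was steeper than the rise. At least 2-fold changes were seen in 254 of the lower genes and in 29 of the higher genes, and the median log2 fold change was -0.72 among the lower and 0.49 among the higher genes, with 0.04 over all genes tested. With library totals in place of TMM, 312 genes were higher and 758 lower, so that the share of higher genes went from 39.5% to 29.2%. The count leaned on single libraries. Leaving out the 14 d replicate 2 library gave 475 genes, the 28 d replicate 3 library 662, the 14 d replicate 4 library 836 and the 28 d replicate 1 library 838. With the first and second of these left out together, a choice made after seeing the data, 64 genes were higher and 102 lower, and 164 of these 166 were among the 1348.

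**Figure D1:**
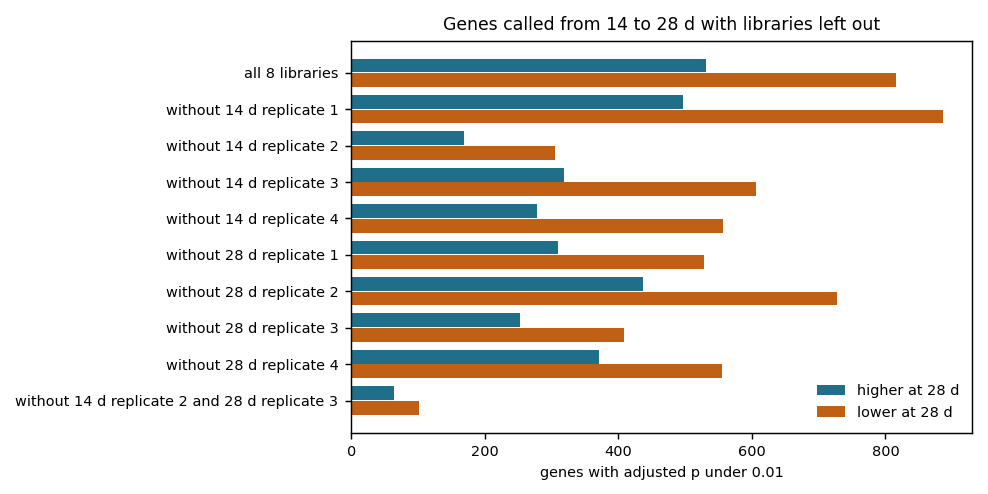
Bars give the number of genes with an edgeR adjusted p under 0.01 from 14 to 28 d, higher (blue) and lower (orange) at 28 d, with all 8 astrocyte libraries and with libraries left out. Lower genes outnumber higher genes in each pair of bars, and the count drops most without the 14 d replicate 2 library, to 475, and without both libraries that lie farthest apart, to 166.

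Most lower genes stood above their uninjured level at 14 d, and most higher genes stood below it. Of the 816 lower genes, 772 had a 14 d mean above the uninjured mean, and 656 still did at 28 d. Of the 532 higher genes, 99 had a 14 d mean above the uninjured mean and 212 a 28 d mean above it. The 14 d libraries enter both the call and these counts, so they describe the genes and are no test.

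Among called genes of at least 1 CPM whose groups did not overlap, the largest falls were in Sirpb1b, Cd36, Il7r, Sprr1a, Tmem71, Tfec, Adam8, Naip5, F7 and Cd300lb. Cd36 (gene 12491; GRCm38 chromosome 5, 17781690 to 17888959), a scavenger receptor that takes up oxidized lipids and fatty acids, stood at 75.6, 148, 90.4 and 92.4 CPM at 14 d and 21.3, 28.5, 18.9 and 21.3 CPM at 28 d. The lowest 14 d mouse was well above the highest 28 d mouse, and the log2 fold change was -2.17 ± 0.39 (edgeR adjusted p = 5.6e-04). Il7r, the receptor chain for interleukin 7, went from 17.7, 28.7, 21.1 and 22.3 CPM to 5.02, 5.63, 4.51 and 5.08 CPM, a log2 fold change of -2.15 ± 0.37 (edgeR adjusted p = 4.0e-04). Its 28 d libraries lay close together, far under the lowest 14 d value. Sprr1a (gene 20753; GRCm38 chromosome 3, 92483954 to 92485881), a small proline-rich protein known as a regeneration-associated gene of injured neurons, stood at 8.04, 11.1, 12.97 and 8.996 CPM and 3.18, 2.19, 2.73 and 2.78 CPM, a log2 fold change of -1.92 ± 0.30 (edgeR adjusted p = 1.2e-04). In flow-through libraries Sprr1a was more abundant, at 169, 199, 169.9 and 151 CPM at 14 d and 44.0, 44.7, 42.5 and 44.5 CPM at 28 d, and fell by a like amount, -2.01 ± 0.20 (edgeR adjusted p = 1.0e-06).

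The other genes of this group include a transcription factor of the myeloid lineage, Tfec, with a log2 fold change of -1.85 ± 0.40 (edgeR adjusted p = 0.0022), and the membrane protease Adam8, with -1.80 ± 0.46 (edgeR adjusted p = 0.0088). F7, the coagulation factor that starts the extrinsic clotting pathway, had -1.74 ± 0.38 (edgeR adjusted p = 0.0029), and Naip5, a sensor of bacterial flagellin, -1.75 ± 0.34 (edgeR adjusted p = 9.3e-04). Cd300lb, an activating receptor of phagocytes, had -1.74 ± 0.40 (edgeR adjusted p = 0.0047), and Tmem71, a membrane protein, -1.88 ± 0.42 (edgeR adjusted p = 0.0031). Sirpb1b had the largest fall at the lowest level, 1.75, 1.76, 1.30 and 1.23 CPM against 0.632, 0.418, 0.146 and 0.102 CPM, a log2 fold change of -2.20 ± 0.58 (edgeR adjusted p = 0.0096). It belongs to a family of close copies between which reads may be split, so its value is uncertain.

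By the same rule the largest rises were in Tpsb2, Pcdhb6, Rab26os, Gm19688, Irs3, 2900052N01Rik, Ggt5, Cxcl12, Ctxn3 and Ephx4. Ggt5 (gene 23887; GRCm38 chromosome 10, 75589327 to 75617200), a gamma-glutamyl transferase that converts leukotriene C4 and glutathione conjugates, stood at 50.2, 40.4, 56.7 and 53.5 CPM at 14 d and 134, 122, 106 and 133 CPM at 28 d. All 4 mice of 28 d lay far above all 4 of 14 d, with a log2 fold change of 1.30 ± 0.14 (edgeR adjusted p = 3.0e-06). Cxcl12 (gene 20315; GRCm38 chromosome 6, 117168535 to 117181368), the chemokine that holds and guides cells bearing Cxcr4, stood at 66.0, 77.7, 61.6 and 63.5 CPM and 161, 189, 152 and 153 CPM, a log2 fold change of 1.29 ± 0.17 (edgeR adjusted p = 2.6e-05). Cxcl12 in flow-through libraries was 141, 182, 121 and 128 CPM and 121, 114, 125 and 104 CPM, without a call (edgeR adjusted p = 0.29), and the change in astrocyte libraries exceeded that in flow-through libraries by 1.55 on the log2 scale (edgeR adjusted p = 1.9e-06).

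Ctxn3, which encodes cortexin 3, had a log2 fold change of 1.26 ± 0.27 (edgeR adjusted p = 0.0022), Ephx4, of the epoxide hydrolase family, 1.25 ± 0.25 (edgeR adjusted p = 0.0012), and Irs3, an insulin receptor substrate, 1.34 ± 0.31 (edgeR adjusted p = 0.0037). The noncoding or unnamed loci 2900052N01Rik (1.32 ± 0.22), Rab26os (1.43 ± 0.32) and Gm19688 (1.36 ± 0.35) passed as well, the last pair at no more than 2.76 CPM in any library. Rab26os is named as the opposite-strand gene of Rab26, and counting without strand cannot tell the reads of such a pair apart. Pcdhb6, with 1.58 ± 0.42, is one of a cluster of closely related protocadherin beta genes, adhesion molecules of neurites. Of 21 genes of that cluster tested, 5 were higher and none lower, against 2.92% higher and 4.48% lower over all genes tested. A log2 fold change above 0 was seen in 20, with a median of 0.66 against 0.04 over all genes. The family was singled out after its values were seen, so these counts are no test, and reads may be split between copies.

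Tpsb2 (gene 17229; GRCm38 chromosome 17, 25366308 to 25368096), a tryptase of mast cells, stood at 1.13, 4.65, 0.855 and 1.38 CPM at 14 d and 7.17, 10.5, 6.39 and 9.77 CPM at 28 d, a log2 fold change of 2.07 ± 0.51 (edgeR adjusted p = 0.0073). The mast cell proteases Cpa3, Cma1 and Mcpt4, looked up after the Tpsb2 values were seen, had log2 fold changes of 2.07 ± 0.59, 1.86 ± 0.80 and 1.60 ± 0.71 (edgeR adjusted p = 0.017, 0.13 and 0.14). In flow-through libraries Tpsb2 rose too, by 2.88 ± 0.78 on the log2 scale (edgeR adjusted p = 0.0090). The 14 d replicate 2 library was the highest of 14 d for all 4 of these genes. The part of mast cell RNA in the astrocyte libraries was not tested.

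**Figure D2:**
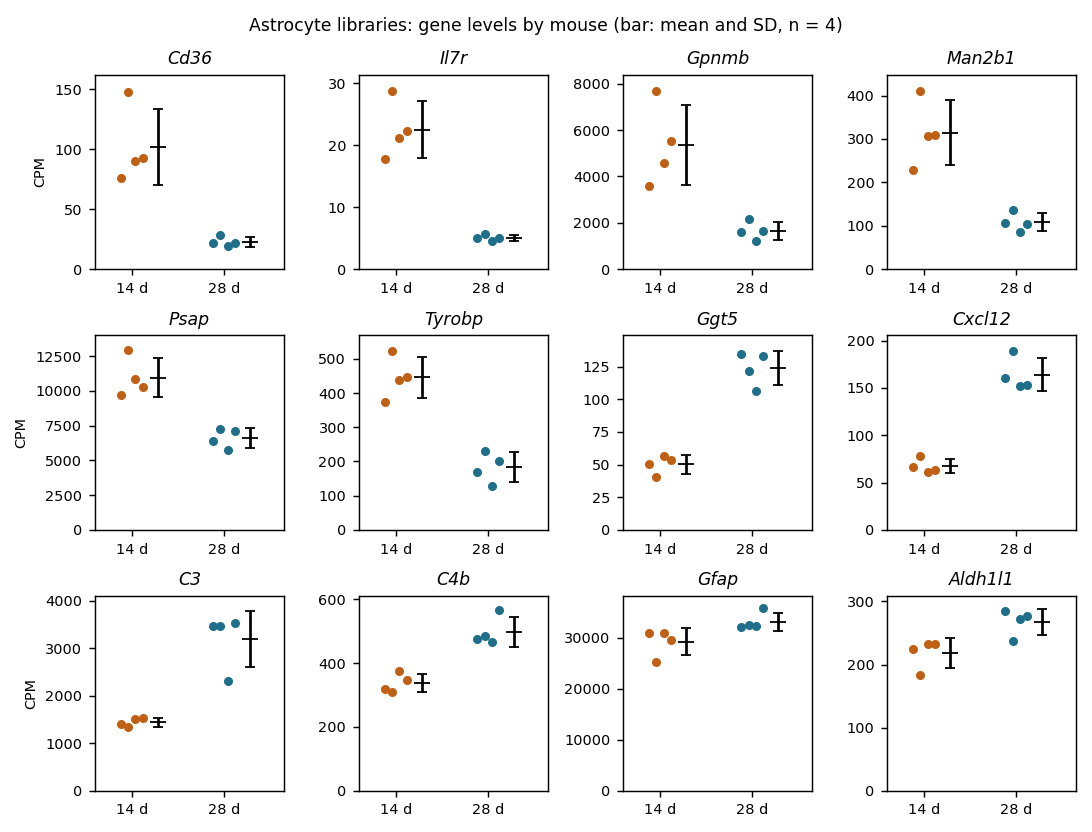
CPM of 12 genes in each astrocyte library (points, 14 d orange, 28 d blue), with the mean and SD of 4 mice beside them on a linear axis from 0. Cd36, Il7r, Gpnmb, Man2b1, Psap and Tyrobp were lower and Ggt5, Cxcl12, C3 and C4b higher at 28 d without overlap between the groups, while Gfap and Aldh1l1 did not pass the test.

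Of the 31 gene lists drawn up by function, the lysosome had the most called members. In astrocyte libraries the called members of each list are to be read against 2.92% higher and 4.48% lower over all genes tested. Of 34 enzymes and membrane proteins of the lysosome, all tested, 24 were lower and none higher, against 4.48% lower over all genes, and the median log2 fold change was -0.81 against 0.04. Gpnmb (gene 93695; GRCm38 chromosome 6, 49036518 to 49058182), a glycoprotein of late endosomes in lipid-laden phagocytes, stood at 3604, 7682, 4600.4 and 5519.5 CPM at 14 d and 1579.8, 2159.8, 1226 and 1638 CPM at 28 d, a log2 fold change of -1.70 ± 0.38 (edgeR adjusted p = 0.0036). Man2b1 (gene 17159; GRCm38 chromosome 8, 85082730 to 85098739), lysosomal alpha-mannosidase, stood at 228, 411, 307 and 310.0 CPM and 105, 137, 86.4 and 105 CPM, a log2 fold change of -1.53 ± 0.22 (edgeR adjusted p = 8.1e-05). In both genes the 14 d replicate 2 library was the highest of the 8, and no library of one time reached into the other. Psap (gene 19156; GRCm38 chromosome 10, 60277628 to 60302600), the precursor of the saposins that help hydrolases reach sphingolipids, had the most reads of the list, with 9730.3, 12970.5, 10832 and 10284 CPM and 6383, 7252, 5727 and 7142 CPM, a log2 fold change of -0.73 ± 0.12 (edgeR adjusted p = 2.2e-04).

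Lipa, the acid lipase that frees cholesterol from its esters, had a log2 fold change of -1.39 ± 0.24 (edgeR adjusted p = 4.0e-04), and Cd68, a sialomucin of phagocyte lysosomes, -1.42 ± 0.35 (edgeR adjusted p = 0.0073). Other called members included proteases (Ctss, Ctsd, Ctsb, Ctsl, Ctsa, Lgmn, Scpep1), glycosidases (Naglu, Gusb, Hexa), lipid and sterol handling (Npc1, Npc2, Asah1), phosphatases (Acp2, Acp5), the progranulin gene Grn and the membrane protein Lamp1, from -1.36 for Acp5 to -0.28 for Acp2. Lamp2, Cd63 and Tpp1 did not pass, with log2 fold changes of -0.02, -0.06 and -0.11, and Ctsf had 0.24 (edgeR adjusted p = 0.016). Without the 14 d replicate 2 library 14 members were lower, without the 28 d replicate 3 library 16, and without both 3.

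Promoter sequence is shown for the lower members whose start region holds the CLEAR-type palindrome, the word bound by factors of the Tfeb family that drive lysosomal genes. RefSeq windows of GRCm38.p6, from 250 bases before to 50 after a gene's start, were found for 19 of the 24 lower members. TCACGTGA stood in 2 of these 19 (10.5%), Ctsd and Ctsa, and in 246 of the 13590 tested genes with a window (1.81%). The shorter word CACGTG, which is part of it, stood in 6 of 19 (31.6%), namely Ctsa, Ctsd, Ctsl, Lamp1, Lgmn and Naglu, and in 1450 of 13590 (10.7%). Over the whole lysosome list, called or not, TCACGTGA stood in 3 of 27 windows (11.1%) and CACGTG in 8 of 27 (29.6%). The shares in the lower members were thus close to those of the list as a whole. Both words read the same on either strand. Capitals mark TCACGTGA, whose first base lies 99 bases before the start in Ctsd (chr7:142387778-142388077, minus strand) and, for the first of 2 copies in Ctsa (chr2:164833523-164833822, plus strand), 13 bases before it. Of 17 cholesterol synthesis genes with a window, a list with no called member, 4 held CACGTG (23.5%) and none TCACGTGA.
Ctsd: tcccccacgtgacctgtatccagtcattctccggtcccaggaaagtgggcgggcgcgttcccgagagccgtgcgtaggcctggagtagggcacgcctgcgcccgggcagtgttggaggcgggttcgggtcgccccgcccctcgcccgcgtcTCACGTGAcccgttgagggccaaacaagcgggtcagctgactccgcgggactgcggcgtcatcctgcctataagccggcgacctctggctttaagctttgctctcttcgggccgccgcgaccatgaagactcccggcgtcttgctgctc
Ctsa: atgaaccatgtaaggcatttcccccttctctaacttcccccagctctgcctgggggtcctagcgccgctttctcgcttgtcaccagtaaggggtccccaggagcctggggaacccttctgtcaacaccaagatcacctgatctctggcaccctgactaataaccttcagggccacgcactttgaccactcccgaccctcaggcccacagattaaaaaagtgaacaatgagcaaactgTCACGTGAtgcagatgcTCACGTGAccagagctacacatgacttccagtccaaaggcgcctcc

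Of 24 receptors and signalling proteins of phagocytes tested, 10 were lower and none higher, with a median log2 fold change of -1.15, the lowest of the 31 function lists, and all 24 values were below 0. Clec7a (dectin 1, a receptor for beta-glucan) stood at 159, 249.2, 168 and 169.8 CPM at 14 d and 60.3, 79.3, 47.2 and 54.7 CPM at 28 d, a log2 fold change of -1.63 ± 0.33 (edgeR adjusted p = 0.0016). Syk, the kinase that carries signals from Clec7a, Trem2 and Fc receptors, had -1.61 ± 0.31 (edgeR adjusted p = 0.0011), Mertk, a receptor for dying cells and synapses, -1.42 ± 0.25 (edgeR adjusted p = 4.6e-04), and Cd300lf, a receptor for lipids on dying cells, -1.39 ± 0.29 (edgeR adjusted p = 0.0023). Tyrobp (gene 22177; GRCm38 chromosome 7, 30413782 to 30417582), the adaptor through which many of these receptors signal, stood at 374, 522, 439 and 447 CPM and 171, 231, 129 and 202 CPM, a log2 fold change of -1.28 ± 0.33 (edgeR adjusted p = 0.0087). Its partner Trem2, a lipid receptor, stood at 343, 459.7, 415 and 414 CPM and 125, 211, 120.3 and 174 CPM, with -1.37 ± 0.32 (edgeR adjusted p = 0.0046).

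Several phagocyte genes did not pass, and in these no library of one time overlapped with the other. Lack of overlap only describes these and other uncalled genes, since its share over all genes tested is not given here. Lyz2, the macrophage lysozyme and the member with the most reads, had a log2 fold change of -1.25 ± 0.35 (edgeR adjusted p = 0.015), Spi1, the myeloid master transcription factor, -1.17 ± 0.32 (edgeR adjusted p = 0.016), Lgals3, a galectin, -0.60 ± 0.17 (edgeR adjusted p = 0.015), and Mmp12, the macrophage elastase, -1.53 ± 0.46 (edgeR adjusted p = 0.026). Calls in the phagocyte list rested on single libraries. Without the 14 d replicate 2 library 2 members were lower, without the 28 d replicate 3 library 3, and without 14 d replicate 3 or 4 or 28 d replicate 1 or 4 between 4 and 6. Tyrobp was called in 8 of 19 alternative fits, Trem2 in 12 of 19 and Syk in 18 of 19.

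Called immune sensors and cytokine receptors were mostly lower too. Of 18 Toll-like receptor and inflammasome genes, 6 were lower and none higher, with a median of -0.77. They were Tlr13 (-1.53 ± 0.27) and Tlr7 (-1.51 ± 0.30), endosomal sensors of RNA, Aim2 (-1.18 ± 0.29), a sensor of cytosolic DNA, Casp8 (-0.83 ± 0.16), a caspase of cell death, Pycard (-0.69) and Tlr4 (-0.68). Tlr3, the member with the most reads, had 0.32 ± 0.14 (edgeR adjusted p = 0.11). Of the 18, 2 were lower without the 14 d replicate 2 library and 3 without 14 d replicate 3, 28 d replicate 1 or 28 d replicate 3. Of 35 cytokines and their receptors, 9 were lower and 1 higher, with a median of -0.42. Lower were the receptor chains Csf2rb (-1.52 ± 0.37), Tnfrsf1b (-1.48 ± 0.31), Il10ra (-1.23 ± 0.26), Csf1r, Il6ra, Il4ra and Il10rb, with Tgfb1 and its receptor Tgfbr1, and higher was Il6st (0.42 ± 0.09), the shared receptor chain of the interleukin 6 family, with the most reads of the list. Without the 14 d replicate 2 or the 28 d replicate 3 library 3 of the cytokine list were lower.

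Myeloid marker genes were lower where called, but the marker lists and the lists above share genes. Pan-myeloid markers hold Tyrobp, Trem2, Spi1, Itgam and Fcer1g of the phagocyte list and Cd68 and Ctss of the lysosome list, and macrophage markers hold Lyz2, Mrc1, Clec4d and Gpnmb. Of 16 pan-myeloid markers, 8 were lower and none higher, and no marker of this list was called without the 14 d replicate 2 library or without the 28 d replicate 3 library. Their summed level in the astrocyte libraries, on the scale common to both fractions, was 7145, 10284, 8718 and 8734 CPM at 14 d and 3608, 4717, 2748 and 4012 CPM at 28 d. Of 12 markers of monocyte-derived macrophages 2 were lower, with 13424 to 22729 CPM at 14 d and 4984 to 8782 CPM at 28 d, most of it Lyz2 and Gpnmb. Of 10 microglia markers 2 were lower, with 848 to 1239 and 515 to 761 CPM. The 14 d replicate 2 library, without which the fewest genes were called, had the highest sum of the 8 in each of these 3 lists, and the 28 d replicate 3 library the lowest. No pan-myeloid or microglia marker was at 0, and 1 macrophage marker, Ms4a8a, stayed under 1 CPM. The part of phagocyte RNA carried over into the pulldown was not tested, and in bulk libraries fewer cells of a type and less RNA per cell cannot be told apart.

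In the flow-through libraries of the same mice 3 of the 24 phagocyte genes were higher and none lower, and 2 of the 34 lysosome genes were higher and 3 lower, against 4.97% higher and 6.63% lower over all genes tested there. The flow-through pan-myeloid sum was 10676, 11947, 10184 and 10886 CPM at 14 d and 13595, 13981, 13326 and 13866 CPM at 28 d, so that the 28 d libraries lay above the 14 d libraries. Microglia markers did so too, at 1956 to 2087 and 2303 to 2494 CPM, while macrophage markers overlapped, at 5277 to 8249 and 6169.9 to 6569.5 CPM. The lysosome list summed to 47504, 67465, 56241 and 56447 CPM at 14 d and 29765, 35504, 26046 and 32582 CPM at 28 d in astrocyte libraries, and to 38158 to 45805 and 45019 to 47661 CPM in flow-through libraries. The phagocyte receptor list summed to 13659.5 to 20222 CPM at 14 d and 5841 to 9351 CPM at 28 d in astrocyte libraries, and to 8110.1 to 10103 and 10789.9 to 11241 CPM in flow-through libraries. At 14 d every astrocyte library thus exceeded every flow-through library for both lists, and at 28 d each lay below. Psap in flow-through libraries stood at 4538, 5189, 4576 and 4757 CPM and 4832, 4925, 4862 and 4850.4 CPM, and Tyrobp at 863, 976, 852 and 899 CPM and 1059, 1091, 998 and 1060.5 CPM.

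**Figure D3:**
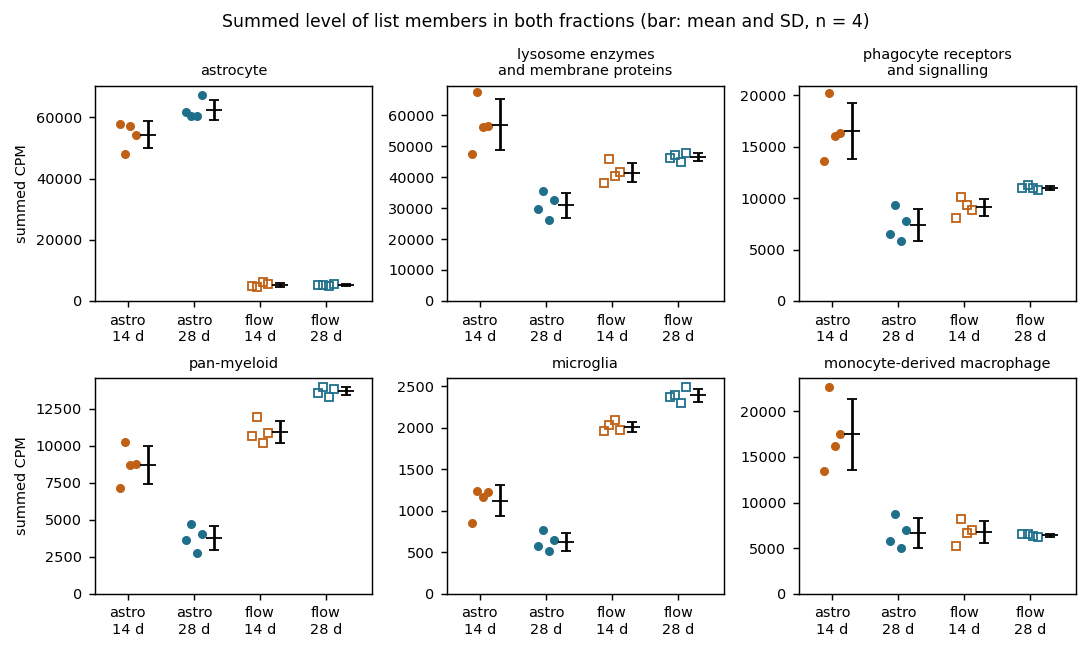
Summed CPM of the astrocyte, lysosome, phagocyte receptor, pan-myeloid, microglia and monocyte-derived macrophage lists in the 4 astrocyte (filled) and 4 flow-through (open) libraries of 14 d (orange) and 28 d (blue), with mean and SD. Pan-myeloid markers summed to 7145 to 10284 CPM at 14 d and 2748 to 4717 CPM at 28 d in the pulldown, and to 10184 to 11947 and 13326 to 13981 CPM in the flow-through.

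The difference between the fractions was tested gene by gene over the 16 libraries of both times. The astrocyte and flow-through library of a mouse were not paired in this fit. Of 18385 genes tested, the change from 14 to 28 d in astrocyte libraries exceeded that in flow-through libraries for 1642 (8.93%) and fell short of it for 2053 (11.2%), 20.1% in all. This split depended on scaling, since with RLE factors, which are medians of ratios, 2001 lay above and 1605 below. Of the 34 lysosome genes 21 fell short and 1, Ctsf, exceeded, and of the 24 phagocyte genes 21 fell short and none exceeded. For Psap the difference was -0.80 ± 0.14 on the log2 scale (edgeR adjusted p = 2.2e-04), for Gpnmb -1.41 ± 0.35 (edgeR adjusted p = 0.0057) and for Tyrobp -1.55 ± 0.19 (edgeR adjusted p = 1.4e-05). Man2b1 fell in both fractions, with a flow-through change of -1.13 ± 0.29 and no call for the difference (edgeR adjusted p = 0.11). Mertk had -1.70 ± 0.51 in flow-through libraries, without a call (edgeR adjusted p = 0.017), nor was the difference called (edgeR adjusted p = 0.63).

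In the flow-through libraries themselves, 954 of 19207 genes were higher at 28 d (4.97%) and 1274 lower (6.63%). Of the genes lower in astrocyte libraries, 136 (16.7%) were also lower in flow-through libraries, which is 10.7% of the latter, and 30 were higher there. Of the genes higher in astrocyte libraries, 83 (15.6%) were also higher in flow-through libraries, 8.70% of the latter, and 5 were lower. Collagens and laminins showed the opposite order to the lysosome. Of 40 matrix genes, 25 were lower in flow-through libraries (median log2 fold change -1.11) and 3 in astrocyte libraries (median -0.40). The 3 were elastin, Eln, with -1.20 ± 0.24 (edgeR adjusted p = 0.0015), and the basement membrane collagens Col4a2 (-0.86 ± 0.20) and Col4a1 (-0.83 ± 0.20). Sparc, the matrix glycoprotein with the most reads in the list, had 0.07 ± 0.15 in astrocyte libraries and -1.92 ± 0.31 in flow-through libraries, and the difference passed (edgeR adjusted p = 7.4e-09). Markers of stroma and fibroblasts summed to 1354 to 1983 CPM at 14 d and 649 to 1292 CPM at 28 d in astrocyte libraries, and to 5959 to 6759 and 1571 to 1911 CPM in flow-through libraries. Their part in the collagen values was not tested.

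Calls in lipid handling fell mainly on uptake, storage and efflux. Of 23 genes of lipid uptake, storage and efflux 5 were lower and 1 higher, with a median of -0.55. Besides Cd36 and Apoe, the lower genes were Abcg1, which exports cholesterol, with 178, 348, 215 and 191 CPM at 14 d and 82.5, 95.9, 67.4 and 88.1 CPM at 28 d and a log2 fold change of -1.48 ± 0.24 (edgeR adjusted p = 2.2e-04), the lipid droplet coat Plin2 (-0.66 ± 0.15), and Soat1 (-0.61 ± 0.09), which esterifies cholesterol for storage. Apoe, the main lipoprotein of the CNS and the member with the most reads, stood at 56469, 68403, 65706 and 63985 CPM and 38026, 47589.5, 35354 and 48497 CPM, a log2 fold change of -0.59 ± 0.14 (edgeR adjusted p = 0.0045). Clu, the lipoprotein clusterin of astrocytes, was the one that rose, by 0.55 ± 0.11 (edgeR adjusted p = 0.0011). Without 14 d replicate 2, 28 d replicate 1 or 28 d replicate 3 the lower genes numbered 3. In flow-through libraries 6 of the 23 were higher and 2 lower, against 4.97% and 6.63% over all genes tested there. The difference between fractions was called below 0 for 10 of them and above 0 for 1, against 11.2% and 8.93% over all genes tested. Of 24 cholesterol synthesis genes none was called, with a median of 0.01 and 0.01 ± 0.15 for Hmgcs1, the member with the most reads. Of 19 genes of fatty acid synthesis and elongation 1 was higher, Acacb (0.55 ± 0.14), and 1 lower, Elovl1 (-0.49 ± 0.13), and Scd2, with the most reads, had 0.25 ± 0.11 (edgeR adjusted p = 0.13).

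Of 19 complement genes 3 were higher and 5 lower, with a median of -0.06. C3 (gene 12266; GRCm38 chromosome 17, 57203967 to 57228136), the component on which all complement pathways meet and the one with the most reads, stood at 1396, 1332, 1508 and 1525 CPM at 14 d and 3457, 3464, 2313 and 3519.9 CPM at 28 d. Every 28 d mouse exceeded every 14 d mouse, the 28 d replicate 3 library less than the others, and the log2 fold change was 1.15 ± 0.16 (edgeR adjusted p = 3.1e-05). C4b (gene 12268; GRCm38 chromosome 17, 34728139 to 34743902), a component of the classical pathway, stood at 318, 311, 374 and 346 CPM and 474, 485, 467 and 567 CPM, with 0.56 ± 0.13 (edgeR adjusted p = 0.0043), and C1s1, the protease that cleaves C4, had 0.99 ± 0.22 (edgeR adjusted p = 0.0034). Lower were the receptors C3ar1 (-1.46 ± 0.31), C5ar2 (-1.33 ± 0.28) and C5ar1 (-1.10 ± 0.26) and the recognition chains C1qb (-1.25 ± 0.31) and C1qc (-1.17 ± 0.28). None of these 5 falls passed without the 14 d replicate 2 library, nor without the 28 d replicate 3 library. In flow-through libraries C4b had -0.28 ± 0.13 (edgeR adjusted p = 0.13), and the change differed between the fractions by 0.76 ± 0.11 (edgeR adjusted p = 3.6e-05). C3 in flow-through libraries had 0.53 ± 0.31 (edgeR adjusted p = 0.23), without a call for the difference (edgeR adjusted p = 0.059).

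Of 31 chemokines and their receptors 2 were higher (6.45%) and 1 lower (3.23%), against 2.92% and 4.48% over all genes. With Cxcl12 rose Cx3cl1 (0.54 ± 0.12), the membrane chemokine that binds the microglial receptor Cx3cr1, and Cxcr4, the receptor of Cxcl12, fell from 121, 174, 133 and 132 CPM to 69.5, 70.8, 57.9 and 66.6 CPM, a log2 fold change of -1.08 ± 0.26 (edgeR adjusted p = 0.0055). Ligand and receptor thus moved in opposite directions in the same libraries. Cxcl14, with the most reads of the list, had 0.29 ± 0.12 (edgeR adjusted p = 0.095). Of 39 genes of TGF-beta and BMP signalling 3 were lower (7.69%) and 1 higher (2.56%), against 4.48% and 2.92% over all genes. The ligand Tgfb1 stood at 90.7, 151, 113 and 117 CPM at 14 d and 49.8, 60.7, 40.7 and 56.0 CPM at 28 d, a log2 fold change of -1.19 ± 0.23 (edgeR adjusted p = 0.0011). Its receptor Tgfbr1 had -1.16 ± 0.21 (edgeR adjusted p = 6.0e-04) and Skil, a nuclear repressor of the pathway, -0.52 ± 0.13, while the BMP receptor Bmpr1b rose by 0.51 ± 0.11. Id2, a BMP target with the most reads of the list, had 0.27 ± 0.07 (edgeR adjusted p = 0.012), and Id3, of the same family, 0.24 ± 0.13 (edgeR adjusted p = 0.26). Of 38 genes of Wnt, Notch and hedgehog signalling none was called, and Dkk3, with the most reads, had 0.25 ± 0.15 (edgeR adjusted p = 0.30).

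Of 31 proteases, clotting factors and their inhibitors 8 were lower and 1 higher. Hpse, heparanase, which cuts heparan sulfate, stood at 102, 203, 129 and 137 CPM at 14 d and 41.9, 67.4, 29.7 and 51.8 CPM at 28 d, a log2 fold change of -1.58 ± 0.37 (edgeR adjusted p = 0.0055). Plaur, F13a1, Adam12 and Mmp14 were also lower, and Timp3, an inhibitor of metalloproteinases, was higher (0.47 ± 0.10), while Timp2, with the most reads, had -0.24 ± 0.11 (edgeR adjusted p = 0.13). Without the 14 d replicate 2 library 1 of these genes was lower, and likewise without the 28 d replicate 3 library. Hpse was called in 11 of 19 alternative fits.

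Among proteoglycans, Ncan (gene 13004; GRCm38 chromosome 8, 70093085 to 70120863), neurocan, a chondroitin sulfate proteoglycan of brain matrix, stood at 278, 214, 252 and 218 CPM at 14 d and 138, 135, 127 and 138 CPM at 28 d, a log2 fold change of -0.84 ± 0.12 (edgeR adjusted p = 3.6e-05). The heparan sulfate proteoglycans Sdc4 (0.44 ± 0.09), with the most reads, and Sdc2 (0.40 ± 0.08) rose. Thus of 22 genes 2 were higher (9.09%) and 1 lower (4.55%), against 2.92% and 4.48% over all genes. Of 29 integrins and cadherins 5 were lower and none higher. They were the leukocyte chain Itgb2 (-1.34 ± 0.31), Itga4 (-1.24 ± 0.28), the fibronectin receptor chain Itga5 (-0.91 ± 0.13), Itgb5 (-0.64 ± 0.12), with the most reads, and Itgb1 (-0.50 ± 0.08). Itga5 stood at 34.3, 50.1, 42.6 and 45.9 CPM and 24.5, 20.9, 23.6 and 22.7 CPM (edgeR adjusted p = 6.7e-05), with no overlap. Without the 14 d replicate 2 or the 28 d replicate 3 library 3 of the 29 were lower.

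Of 41 axon guidance genes 7 were lower and 1 higher, with a median of 0.01, and without the 14 d replicate 2 library 4 were lower and none higher. Plxna1, a plexin through which semaphorins repel axons, stood at 105, 163, 119 and 129 CPM at 14 d and 57.5, 72.8, 51.4 and 63.6 CPM at 28 d, a log2 fold change of -1.08 ± 0.15 (edgeR adjusted p = 2.8e-05). Sema4d, a semaphorin ligand, stood at 91.5, 129.5, 99.1 and 106 CPM and 51.9, 60.6, 42.01 and 53.2 CPM, with -1.04 ± 0.16 (edgeR adjusted p = 1.3e-04). Both fell also in flow-through libraries, with log2 fold changes of -0.95 ± 0.13 and -1.28 ± 0.19, and the difference was not called (edgeR adjusted p = 0.40 and 0.53). Plxnc1 (-1.19 ± 0.28), Plxnd1, Nrp2, Nrp1 and Sema4b were lower as well, and the secreted ligand Sema3c rose by 0.80 ± 0.18 (edgeR adjusted p = 0.0040). Plxnb2, with the most reads, had -0.31 ± 0.09 (edgeR adjusted p = 0.017).

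Genes of resting astrocyte function were called higher in small numbers, to be read against 2.92% higher over all genes. Of 24 astrocyte transcription factors tested 2 were higher and none lower, Sox2 (gene 20674; GRCm38 chromosome 3, 34649995 to 34652461) at 219, 156, 171 and 168 CPM at 14 d and 321, 239.6, 320.3 and 237 CPM at 28 d, a log2 fold change of 0.65 ± 0.11 (edgeR adjusted p = 2.9e-04), and Pax6, with 0.54 ± 0.10 (edgeR adjusted p = 3.6e-04). Both are factors of neural progenitors that adult astrocytes keep. Of 17 genes of transmitter uptake and glutamine synthesis 1 was higher, Glul, glutamine synthetase, with 864, 839.8, 789 and 859 CPM and 1117, 993, 1333 and 1104 CPM and 0.44 ± 0.11 (edgeR adjusted p = 0.0087), and 1 was lower. Slc1a2, the main glutamate transporter and the member with the most reads, had 0.22 ± 0.13 (edgeR adjusted p = 0.32). Of 16 endfoot, water and potassium genes 1 was higher, Mlc1 (0.33 ± 0.09), and Atp1b2, the sodium pump subunit with the most reads, had 0.40 ± 0.11 (edgeR adjusted p = 0.013). Mlc1 was called in 3 of 19 alternative fits and Glul in 5 of 19.

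Of 24 synapse and neurite contact molecules 1 was lower, Mertk, and Sparcl1 (hevin), with the most reads, had 0.43 ± 0.16 (edgeR adjusted p = 0.059). In glycolysis and the hypoxia response 2 of 25 (8.0%) were higher, Ldhb (0.43 ± 0.08) and Pdk4 (0.70 ± 0.13). As many were lower, Hk2 (-0.69 ± 0.18) and the lactate exporter Slc16a3 (-1.10 ± 0.26), against 2.92% higher and 4.48% lower over all genes. Aldoc, which had the most reads, had 0.47 ± 0.13 (edgeR adjusted p = 0.013). Of 26 filament and cytoskeleton genes S100b (0.56 ± 0.14) and Tagln (0.74 ± 0.18) were higher and Flna (-0.39 ± 0.08) and Lmna (-0.36 ± 0.10) lower. Among 429 genes that the study took from published data as enriched in healthy astrocytes and that were enriched in its uninjured libraries as well, 59 were higher (13.8%) and 17 lower (3.96%), against 2.92% and 4.48% over all genes tested, with a median of 0.22, and without the 14 d replicate 2 library 27 and 6. Of the 757 genes that the study named for a delayed rise after injury, 104 were higher (13.7%) and none lower, with a median of 0.32. That list was drawn up from these samples, so its direction is not independent evidence. Of 195 tested genes of epithelial-to-mesenchymal transition 9 were higher (4.62%) and 23 lower (11.8%), and of 255 wound healing genes 9 (3.53%) and 37 (14.5%), lists that the study took from public gene sets and narrowed to genes that changed in its own libraries.

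**Figure D4:**
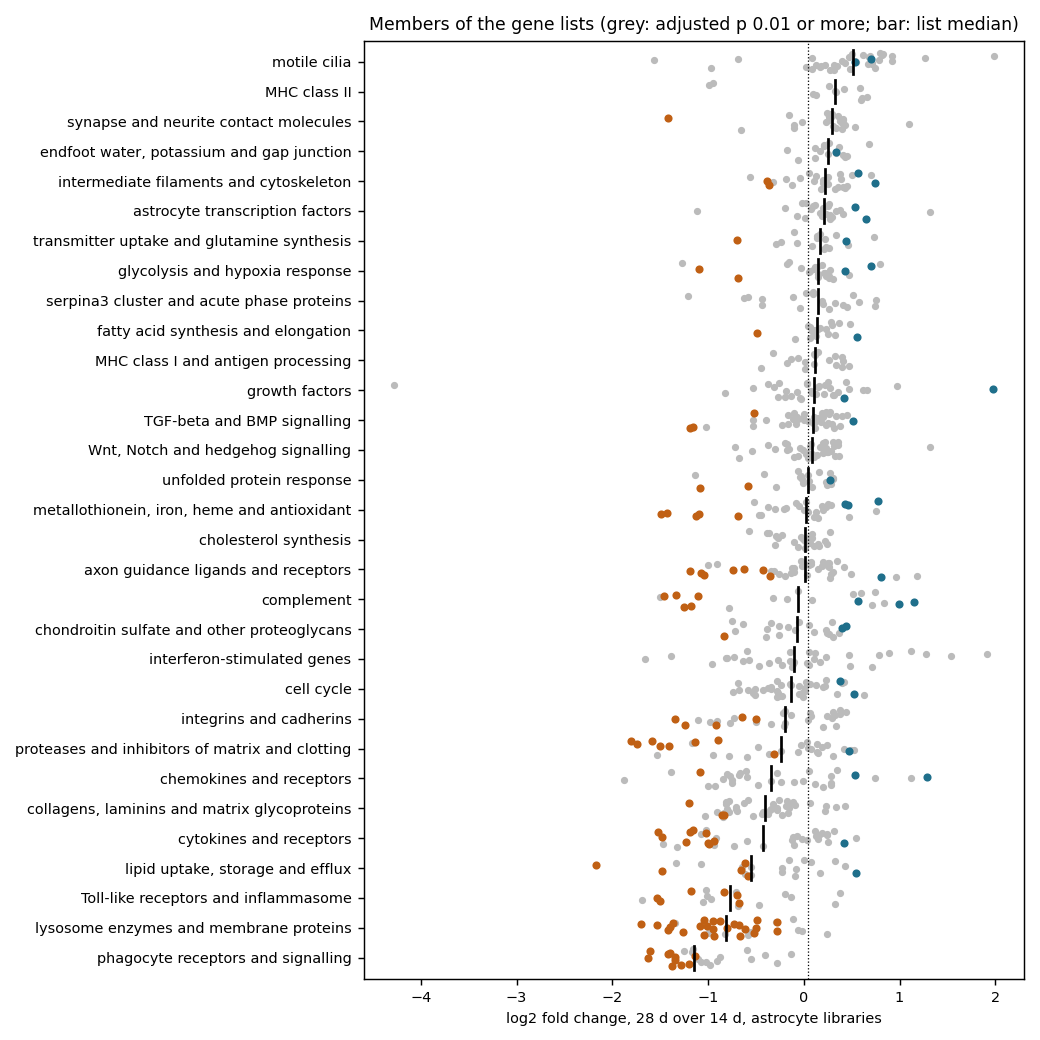
Each point is the log2 fold change from 14 to 28 d of 1 member of a gene list in astrocyte libraries, orange where called lower, blue where called higher and grey otherwise, with a bar at the list median and a dotted line at the median of all genes tested. Phagocyte receptors (median -1.15) and lysosome genes (median -0.81) lie lowest, and motile cilia genes (median 0.52) highest.

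Stress and metal genes moved in both directions. Of 31 genes of metallothioneins, iron, heme and oxidative defence 5 were lower and 3 higher. Lower were the iron exporter Slc40a1 (-1.49 ± 0.29), the phagosomal metal transporter Slc11a1 (-1.43 ± 0.36), Hmox1 (-1.12 ± 0.22), which opens the heme ring, the ferritin chain Ftl1 (-1.09 ± 0.25) and Blvra. Higher were Gstm1 (0.77 ± 0.10), a glutathione transferase, Prdx6, a peroxiredoxin, at 4288, 3521, 4309 and 4729.5 CPM and 5618, 5969, 5619.7 and 6004 CPM with 0.46 ± 0.09 (edgeR adjusted p = 9.6e-04), and Sod3 (0.43 ± 0.10). Mt1, the metallothionein with the most reads, had 0.15 ± 0.15 (edgeR adjusted p = 0.59). Without the 14 d replicate 2 or the 28 d replicate 3 library 2 of the list were lower. Of 22 genes of the unfolded protein response the sensor Atf6 (-0.58 ± 0.09) and the stress factor Atf3 (-1.09 ± 0.20) were lower (9.09%). The disulfide isomerase Pdia4 (0.27 ± 0.07) was higher (4.55%), against 4.48% lower and 2.92% higher over all genes. Canx, with the most reads, had 0.23 ± 0.07 (edgeR adjusted p = 0.024).

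Of 38 cell cycle genes 2 were higher, the cyclin Ccnd2 (0.52 ± 0.10), with the most reads, and the inhibitor Cdkn1b (0.38 ± 0.10), and none lower, which is 5.26% higher against 2.92% over all genes. The direction depended on the fit, since with the 14 and 28 d libraries alone none was higher and 2 lower. Of 38 motile cilia genes tested the median of 0.52 was the highest of the 31 function lists. Yet 2 were called (5.26% higher against 2.92% over all genes), Tekt1 (0.71 ± 0.18) and Cfap126 (0.53 ± 0.13), both at the ciliary axoneme. Neither was called without the 14 d replicate 2 library. Of the 39 genes listed, 13 stayed under 1 CPM in every astrocyte library of both times. Axonemal dynein heavy chain genes (15 tested) had a median of 0.08, with 11 above 0 and none called. Tppp3, with the most reads, had 0.62 ± 0.23 (edgeR adjusted p = 0.072). The 9 ependymal markers, of cells that line the central canal with motile cilia, summed to 172 to 224 CPM at 14 d and 238 to 276 CPM at 28 d in astrocyte libraries, 1 of them called higher, with Dnah12, Pifo and Tmem212 under 1 CPM, and their part in the cilia values was not tested. Of 34 growth factors and their binding proteins 2 were higher, Vegfb (0.42 ± 0.10) and Igfbpl1, whose log2 fold change of 1.97 ± 0.51 rested on 36.5, 33.8, 45.1 and 87.5 CPM at 14 d and 441, 88.9, 209 and 57.0 CPM at 28 d, with overlap between the groups. Igfbp5, with the most reads, had 0.62 ± 0.19 in astrocyte and -0.99 ± 0.28 in flow-through libraries, and the difference passed (edgeR adjusted p = 4.5e-07).

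No interferon-stimulated gene (34 tested), no MHC class I gene (18) and no MHC class II gene (12) was called. Gbp2, a GTPase induced by interferon with the most reads of its list, stood at 77.3, 67.3, 76.4 and 47.1 CPM at 14 d and 569, 80.3, 62.3 and 65.0 CPM at 28 d. The 28 d replicate 1 library was the highest of the 4 mice of 28 d for 33 of the 34 interferon genes, and the list summed to 3213, 856, 703 and 816 CPM in replicates 1 to 4 of 28 d and 1236, 1199.8, 1316 and 776 CPM in those of 14 d. The flow-through libraries of 28 d summed to 863 to 892 CPM, replicate 1 included. The list median was -0.10 with that library and -0.42 without it. B2m, the MHC class I light chain, had 0.01 ± 0.21 (edgeR adjusted p = 0.97) and Cd74, the class II chaperone, 0.59 ± 0.35 (edgeR adjusted p = 0.29). In flow-through libraries 7 of 18 class I and 5 of 12 class II genes were higher and none lower, against 4.97% higher over all genes tested there. The difference between fractions was called below 0 for 1 class I and 3 class II genes, against 11.2% over all genes tested. For the other members a difference between the fractions was not shown.

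Several genes that the study follows did not pass. Of 20 genes of the serpina3 cluster and the acute phase none was called, and Serpina3n, a protease inhibitor of reactive astrocytes with the most reads, had 0.26 ± 0.25 in astrocyte libraries (edgeR adjusted p = 0.56) and -1.71 ± 0.33 in flow-through libraries (edgeR adjusted p = 5.9e-04). Members of that cluster are close copies between which reads may be split. Lcn2, which binds bacterial siderophores, had 0.58 ± 0.35 (edgeR adjusted p = 0.30), A2m, a broad protease inhibitor, 0.33 ± 0.15 (edgeR adjusted p = 0.15), and Cdsn, corneodesmosin, 0.38 ± 0.24 (edgeR adjusted p = 0.32). S100a6, a calcium-binding protein, had 0.70 ± 0.22 (edgeR adjusted p = 0.026) and Fxyd1, a regulator of the sodium pump, 0.54 ± 0.14 (edgeR adjusted p = 0.011), and for both genes the groups did not overlap.

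Genes differed in where the 14 to 28 d change fell in their time course. Gpnmb was 15.2 ± 1.86 CPM (SD, n = 4) in uninjured astrocytes and 228 ± 93.6 (SD, n = 5) at 2 d, and 6559.7 ± 719, 5351 ± 1739, 1651 ± 385, 1491 ± 547 and 597 ± 379 CPM (SD, n = 4 each) at 5, 14, 28, 42 and 70 d. Its 5 and 14 d means differed by less than the SD at 14 d, before the drop to 28 d. Cd36 was already past its peak of 321 ± 47.9 CPM at 5 d, with 102 ± 31.8 CPM at 14 d and 22.5 ± 4.15 CPM at 28 d. Its 42 d value of 52.9 ± 23.3 CPM was not compared by a test here. Hmox1 had its highest mean at 5 d, 2743 ± 590.3 CPM, against 174 ± 19.6 at 14 d and 79.8 ± 12.5 at 28 d.

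C3 was 523 ± 87.2 CPM (SD, n = 4) in uninjured astrocytes, 102 ± 23.2 (SD, n = 5) at 2 d, 288 ± 59.5 at 5 d, 1440.4 ± 92.1 at 14 d, and from 28 d on 3189 ± 584, 3276 ± 175 and 3252 ± 325 CPM (SD, n = 4 each) in order of time. Its last 3 means lay within 1 SD of each other, after the rise between 14 and 28 d. Cxcl12 was 19.3 ± 5.66 CPM uninjured, 43.2 ± 8.15 at 2 d, 23.2 ± 2.88 at 5 d and 67.2 ± 7.24 at 14 d, and 164 ± 17.3, 169.6 ± 20.5 and 141 ± 23.99 CPM at 28, 42 and 70 d. Ggt5 dropped from 18.3 ± 3.52 CPM uninjured to 3.35 ± 0.414 CPM at 2 d and stood at 124 ± 13.1 CPM at 28 d and 106 ± 6.97 CPM at 70 d. Ncan went the other way, from 302 ± 47.1 CPM uninjured and 241 ± 30.3 CPM at 14 d to 135 ± 4.99 CPM at 28 d and 99.9 ± 17.8 CPM at 70 d. Sox2 returned toward its uninjured level of 352 ± 29.9 CPM, with 139 ± 8.87 CPM at 5 d, 179 ± 27.9 at 14 d and 279 ± 47.6 at 28 d, and Glul did so in small part, with 4012 ± 552 CPM uninjured, 838 ± 34.0 at 14 d and 1137 ± 142 at 28 d.

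**Figure D5:**
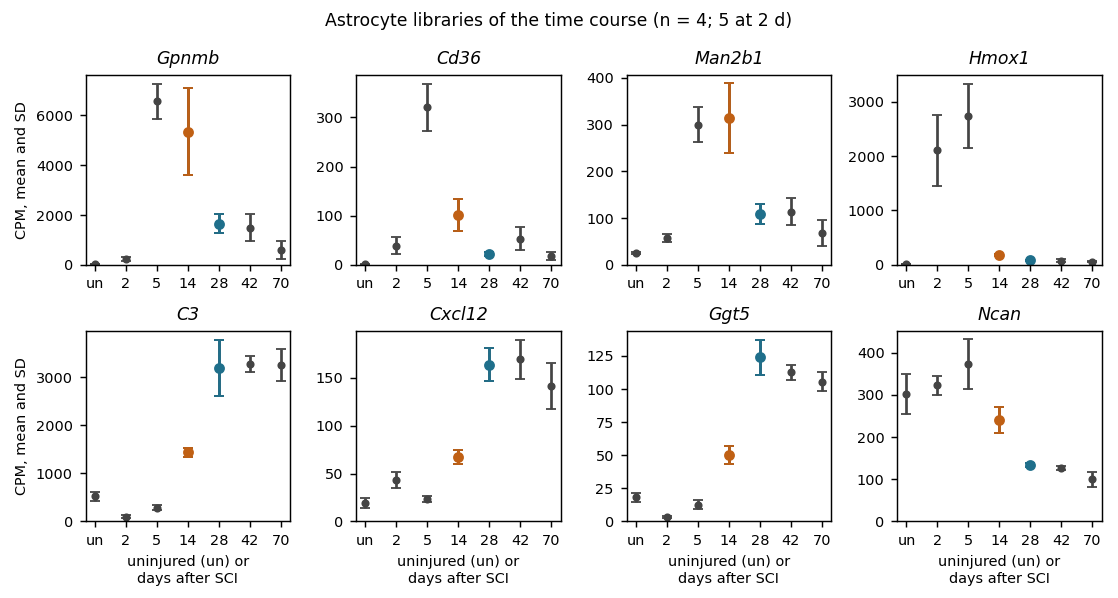
Mean CPM with SD in astrocyte libraries of uninjured mice and at 2, 5, 14 (orange), 28 (blue), 42 and 70 d after SCI, on linear axes from 0. Gpnmb and Man2b1 have similar means at 5 and 14 d and lower ones at 28 d, and the 28, 42 and 70 d means of C3, Cxcl12 and Ggt5 all lie above their 14 d means.

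With the 4 male astrocyte libraries of 14 d in place of the females, 533 genes were higher and 1017 lower at 28 d, 1025 of them among the 1348. Sex and time cannot be told apart in that contrast. The log2 fold changes were -1.94 for Gpnmb, -0.79 for Psap, -1.46 for Tyrobp, 1.14 for C3, 0.91 for Ggt5 and 1.47 for Cxcl12, all called. Of the 98 called genes named and reported here, 11 were called in every alternative fit, including that without both the 14 d replicate 2 and the 28 d replicate 3 library. These were Ggt5, Cxcl12, C3, Sprr1a, Plxna1, Sema4d, Ncan, Itga5, Soat1, Man2b1 and Atf6.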

How the data were processed

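Libraries were poly(A)-selected and read as pairs. Per the labels and the study's methods, Trimmomatic removed adapters and weak bases, HISAT2 placed the reads on mm10, and featureCounts gave the raw counts per Entrez gene that the authors deposited. Counting used the tool's default parameters, which take no account of strand. Counts of the 29 female astrocyte libraries (7 groups) were fitted together in edgeR 4.0.16 (R 4.3.3; filterByExpr, TMM, robust quasi-likelihood F test, two-sided) with the contrast 28 d minus 14 d, the 29 flow-through libraries likewise, and the 16 libraries of 14 and 28 d for the difference between fractions. DESeq2 1.42.0 served as an alternative, with others of scaling, filter, block, threshold and libraries left out. By their titles the astrocyte and flow-through library of a mouse come from the same animal, but the main fit of the difference did not pair them. Their correlation of deviations was 0.20 to 0.42 at 14 d and 0.02 to 0.19 at 28 d. Between 28 d flow-through replicates the chi-square per gene of the counts was 21.3 to 58.5. It was 56.8 to 106 between those of 14 d and 49.0 to 335 between 28 d astrocyte replicates. The flow-through and difference tests rest in part on this narrow spread, whose cause was not tested. A fit with the mouse as replicate block served as an alternative. Named were Gfap and Aldh1l1, the 10 largest changes in each direction (at least 1 CPM, no overlap between groups), up to 4 called members and the member with the most reads of each list, and 16 genes that the study follows. Some genes that these rules named are not reported here. Members and lists were chosen with earlier results of these data known. Fits were tested on simulated data. At an adjusted p under 0.01 the astrocyte contrast found 51.6% of simulated 2-fold and 28.3% of 1.5-fold changes. The flow-through contrast found 39.8% and 5%, and the difference 50.5% and 12.2%. Unchanged genes that were called numbered 1, 1 and 0 in this order. Each gene was drawn independently, so shifts shared by many genes of a library were not simulated. These numbers therefore do not give the rate of false calls under such shifts. A gene without a call is thus not shown to be unchanged. Total counts per astrocyte library of 14 and 28 d were 97436392 to 115404209. Over the 29 fitted they ran from 72619805, at 2 d, to 123505722, in an uninjured mouse, and at 42 d from 74300399 to 81749957.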

Additional observations from a re-analysis of the deposited data

Results flagged for a closer look

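Of 362 sets of 4 libraries tested with Dixon's ratio, 29 had 1 library far from the other 3, where chance gives about 1 in 20. In the 14 d replicate 1 library the value was highest for Bmpr1b (93.3 CPM), Id2 (534 CPM), Sema3c (65.7 CPM) and Scd2 (2757 CPM) and lowest for Lmna (93.2 CPM) and Ftl1 (819.9 CPM). In the 14 d replicate 2 library the value was highest for Tpsb2 (4.65 CPM), Skil (49.3 CPM), Aim2 (12.8 CPM), Soat1 (214 CPM), Clec7a (249.2 CPM), Cpa3 (1.44 CPM) and Mcpt4 (4.18 CPM) and lowest for Aldh1l1 (183 CPM), Mt1 (5535 CPM) and Fxyd1 (938 CPM). In the 28 d replicate 1 library the value was highest for Gbp2 (569 CPM) and lowest for Eln (38.5 CPM) and S100b (1649.3 CPM). In the 28 d replicate 2 library the value was highest for Timp2 (1194 CPM) and Cpa3 (2.58 CPM). In the 28 d replicate 3 library the value was highest for Cdkn1b (63.3 CPM) and lowest for C3 (2313 CPM), Mertk (16.02 CPM) and Lcn2 (358 CPM). In the 28 d replicate 4 library the value was highest for Gfap (35832 CPM). Of summed lists, chemokines and receptors (14 d replicate 4, lowest, 1266 CPM), complement (28 d replicate 3, lowest, 4453 CPM) and interferon-stimulated genes (28 d replicate 1, highest, 3213 CPM) stood apart.

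The change from 14 to 28 d differed between astrocyte and flow-through libraries for 56 of the 134 named genes (edgeR's quasi-likelihood F test of the interaction with Benjamini-Hochberg adjustment over 18385 genes, adjusted p under 0.01). Most of these genes were chosen for their astrocyte change, so that the share cannot be set against the 20.1% over all genes tested. For 12 genes the astrocyte change exceeded the flow-through change on the log2 scale, by 1.91 for Sparc, 1.89 for Serpina3n, 1.55 for Cxcl12, 1.53 for Igfbp5, 0.89 for Ggt5, 0.88 for Ldhb, 0.88 for Sparcl1, 0.84 for Ccnd2, 0.81 for Glul, 0.76 for C4b, 0.60 for Vegfb and 0.59 for Acacb. For 44 it fell short, with the widest differences of -2.33 for Clec7a, -2.28 for Mmp12, -2.18 for Tmem71, -1.94 for Cd300lf, -1.86 for Slc16a3, -1.82 for Trem2, -1.82 for Naip5, -1.69 for Abcg1, -1.66 for Tgfbr1, -1.60 for C5ar2, -1.58 for Adam8 and -1.56 for Tlr7. Next came -1.55 for Tyrobp, -1.53 for Hpse, -1.53 for Il10ra, -1.51 for Cxcr4, -1.51 for Tnfrsf1b, -1.49 for Tlr13, -1.44 for Slc40a1, -1.44 for C3ar1, -1.41 for Gpnmb, -1.37 for Aim2, -1.37 for Skil and -1.37 for C1qc. Then followed -1.36 for Lyz2, -1.34 for Csf2rb, -1.30 for Itga4, -1.30 for Plxnc1, -1.26 for Cd300lb, -1.26 for Soat1, -1.20 for Syk, -1.10 for Itgb2, -1.09 for Lgals3, -1.08 for Hmox1, -0.99 for Lipa and -0.98 for Ftl1. The smallest were -0.95 for Hk2, -0.95 for Atf3, -0.80 for Psap, -0.78 for Atf6, -0.71 for Apoe, -0.60 for Itgb5, -0.56 for Timp2 and -0.51 for Cdkn1b. The adjusted p-values ran from 7.4e-09 for Sparc to 0.0057 for Gpnmb.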

How the results depend on the processing

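The astrocyte count of 1348 genes stayed within 1.5 times under fits of the 14 and 28 d libraries alone (1713), DESeq2 (1970), RLE scaling (1342), no filter (1233), the replicate block (1081) and the replicate block in the 14 and 28 d libraries alone (1593), with lower genes in the majority each time. At an adjusted p under 0.05 it was 2795. It ran from 475 to 1383 with 1 library left out, and was 166 without both the 14 d replicate 2 and 28 d replicate 3 libraries. The flow-through count of 2228 rose to 6626 with the 14 and 28 d libraries alone, to 6306 with a replicate block in these, and to 4232 at 0.05, and ran from 1229 to 1878 with 1 library left out. The count for the difference, 3695, was 4042 with the mouse as replicate block, 4466 with DESeq2 (2437 above 0 and 2029 below), 5731 at 0.05 and 2734 to 3233 with 1 library left out. The cause of these shifts was not tested, except that fewer libraries and a wider threshold are built into them. Replicate numbers did not pair the astrocyte libraries of the 2 times (correlation of deviations -0.05, 0.26, -0.18 and -0.01). Of 2545 pairs of a named gene and an alternative, 1993 kept direction and side of the threshold, 483 lost a call, 44 gained one and 25 changed sign, none of a called gene. B2m, at 0.01, went to -0.0116 (14 and 28 d alone), -0.00197 (DESeq2), -0.00196 (RLE), -0.0839 (14 and 28 d alone with the block), -0.00227 (library totals), -0.00845 (mean CPM of at least 1), -0.0162 (block), -0.233 (14 d males), and -0.287 to 0.159 with 1 library left out (below 0 at -0.00663, -0.0355 and -0.287). Hmgcs1, at 0.01, went in the same order without the block to -0.0143, -0.00477, -0.00477, -0.0127, -0.0154, -0.00699, -0.0744 (males), -0.133 (both libraries left out), and -0.0897 to 0.103 with 1 left out (below 0 at -0.0310, -0.0402 and -0.0897). Against the 14 d males Sparc had -0.117, Slc1a2 -0.0273 and Cdsn -0.210. With 4 mice a time and at least 97436392 counts in each astrocyte library of 14 and 28 d, no pair of replicates agreed within counting error. How far the spread between mice and counting error each limited the calls was not tested.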
